A study of Mus musculus with 19 samples.

Results

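Early erythroblasts were compared with megakaryocyte-erythroid progenitors (MEP), the bone marrow cells that can still form either red cells or platelets. The comparison rests on 5 of the 19 arrays of the series, 2 of early erythroblasts and 3 of MEP, chosen by their sample titles. All populations were sorted from adult bone marrow of C57BL/6 mice aged 8 to 12 weeks, and the labels name no treatment or engineered allele. MEP were gated as lineage-negative, cKit-positive and Sca1-negative cells with low CD16/32 and low CD34, and early erythroblasts as Ter119-positive cells of high forward scatter and high CD44. Of the 38391 features on the array (20659 named genes, 4610 intergenic noncoding regions, 1317 custom features and 11805 other accessions), 22198 had a signal well above background on each array of the group in which they were higher.

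As red cells form, the transcription factors GATA1 and KLF1 take over from GATA2 and the stem cell programme. Committed erythroblasts then respond to erythropoietin, divide quickly, load iron, make heme and globin, and build the spectrin-based skeleton under the red cell membrane. GATA1 binds the letters GATA in the promoters and enhancers of many of these genes, and KLF1 binds a CACCC element.

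The RNA on each array was total RNA, isolated on silica columns (RNeasy Mini) and hybridised to a catalogue mouse expression array carrying added custom probes against long noncoding RNAs, pseudogenes and genes that overlap small RNAs. A level is the log2 processed signal of a spot minus the 75th percentile of all non-control spots on the same array, so 0 marks that percentile. A difference is the early erythroblast mean minus the MEP mean of such levels. The labels do not tie replicates to different animals, and the p-values therefore reflect spread among these arrays that could be technical, with precision limited by the number of arrays. In bulk RNA, fewer cells of a type and less RNA per cell cannot be told apart.

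The erythroblast arrays were dim. The 75th percentile of signal was 64.2 and 81.3 intensity units on the early erythroblast arrays and 403 to 554 on the MEP arrays, and the 100 brightest spots held 31.6% and 28.4% of the signal against 12.3% to 14.3%. Scaling to the added spike-in control RNA in place of the percentile lowered each difference by 3.50 on the log2 scale (11.3-fold) for features measured on every array. A gene with a difference above 3.50 therefore had a positive difference on both scales, one between 0 and 3.50 was positive only relative to its array's percentile, and one below 0 was negative on both. Which scale is nearer to RNA per cell was not tested, and the differences below are those on the percentile scale, with the number that kept a positive difference on the spike-in scale, and the number called higher there, beside most gene groups. The lowest level that counted as well above background was -2.74 and -2.80 on the early erythroblast arrays and -3.79 to -5.30 on the MEP arrays. A gene well above background on neither array of early erythroblasts, or on no MEP array, has a minimum fold in place of an exact one. Of the genes named below, Cd34, Pf4, Myc, Egr1, Fos, Hhex, Fli1, Rara, Tgfbr2, Gbp2, Cdkn1a, Slc2a1, Socs3, Sh2b3, Wdr12, Rrs1 and Polr1e were well above background on 1 of the 2 early erythroblast arrays, and their differences rest partly on a signal that was not. The same holds for Erfe, Foxo3, Cxcl12, C1qa and C1qc, so measured on 2 of the 3 MEP arrays, and for Hbb-y, Hbq1a and Mxi1, on 1.

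The labels were set against marker genes. All 10 erythroblast markers were well above background on both early erythroblast arrays, and Kit, Gata2 and Pf4 were so on all 3 MEP arrays. Messenger RNA for the gated surface proteins was read as well. The gate given for MEP names no CD44, so the Cd44 comparison cannot test the CD44-high gate. Cd44 was at 0.78 and 1.41 in the CD44-high early erythroblasts and at 3.05, 2.88 and 2.73 in MEP, a difference of -1.79 (SE 0.19, adjusted p = 4.7e-07), with each of its 3 probes called lower. Cd34, the stem cell antigen for which MEP were gated low, had a mean level of 6.78 ± 0.41 (SD, n = 3) in MEP. In the lineage-negative, Sca1-positive, cKit-positive (LSK) stem cell sort it was 7.81 ± 0.05 (SD, n = 3). Common myeloid progenitors stood at 7.30 ± 0.22 (SD, n = 3) and granulocyte-macrophage progenitors at 6.97 ± 0.02 (SD, n = 2). Ly6a, which encodes Sca1, was at -0.98 ± 0.22 (SD, n = 3) in MEP and 3.58 ± 0.22 (SD, n = 3) in LSK.

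The 2 early erythroblast arrays differed from each other in genes of other cells. On array 2, 11 of 12 granulocyte markers tested were higher than on array 1 (median 1.59 log2 units), as were 18 of 19 myeloid progenitor genes (median 1.48) and 15 of 20 immediate early genes (median 1.08). Across all features tested the median of array 2 minus array 1 was -0.06, and 43.9% were higher on array 2.

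Across all features, 18544 of 22783 tested differed between the populations (81.4%, limma with Benjamini-Hochberg adjustment at 0.05). Early erythroblasts were called higher for 9937 features, 43.6% of those tested, and lower for 8607, 37.8%. In 9867 of the former (43.3% of those tested) and 8492 of the latter (37.3%) no early erythroblast array overlapped an MEP array. With spike-in scaling 607 features (2.66%) were called higher and 18321 (80.4%) lower. Among named genes 4969 of 13375 were higher (37.2%) and 6137 lower (45.9%), with a median difference of -0.26 against 0.23 over all features, and among 5628 other accessions 2579 were higher (45.8%) and 1876 lower (33.3%). By 2-fold or more, 8451 features were higher and 7086 lower, and by 16-fold or more 1077 and 1399. At 64-fold or more 223 were higher and 133 lower, and at 256-fold or more 65 and 6. All 15 features beyond 1024-fold were higher. Named genes alone were higher in 564 and lower in 1188 at 16-fold or more, and 126 and 123 at 64-fold or more. Falls end at the background of the dim erythroblast arrays, and the part of this limit in the counts was not tested. The shares of named genes called, 37.2% higher and 45.9% lower, apply beside each gene group below.

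The promoters of 4 genes from the red cell programme are shown because 3 of them belong to the 12 named genes with the largest rises among those well above background throughout both populations and all hold a motif of the factor GATA1. Each stretch is 300 bases in the direction of the gene, 250 before and 50 from the start site onward, from RefSeq on GRCm38.p6, in lower case. Capitals mark matches, on either strand, to the erythroid factor motif AGATAA or to the KLF1-type motif CCACACCC. Alas2 encodes the erythroid enzyme of the first step of heme synthesis (chrX:150547167-150547466, plus strand), Hbb-bs an adult beta globin (chr7:103827879-103828178, minus strand), Ackr1 the Duffy blood group receptor (chr1:173333454-173333753, minus strand), and Epb42 the membrane skeleton protein 4.2 (chr2:121036828-121037127, minus strand).
Alas2: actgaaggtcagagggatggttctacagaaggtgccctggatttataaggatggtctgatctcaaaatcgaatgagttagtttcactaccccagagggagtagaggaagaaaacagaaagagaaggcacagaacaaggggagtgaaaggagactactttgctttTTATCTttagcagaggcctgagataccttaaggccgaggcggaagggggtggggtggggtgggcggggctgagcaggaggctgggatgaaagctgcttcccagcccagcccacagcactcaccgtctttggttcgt
Hbb-bs: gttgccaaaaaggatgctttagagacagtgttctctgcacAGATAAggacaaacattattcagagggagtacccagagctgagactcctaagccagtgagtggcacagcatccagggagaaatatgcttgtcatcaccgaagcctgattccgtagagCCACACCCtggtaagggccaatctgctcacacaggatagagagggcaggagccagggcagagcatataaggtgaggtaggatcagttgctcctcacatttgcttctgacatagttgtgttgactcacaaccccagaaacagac
Ackr1: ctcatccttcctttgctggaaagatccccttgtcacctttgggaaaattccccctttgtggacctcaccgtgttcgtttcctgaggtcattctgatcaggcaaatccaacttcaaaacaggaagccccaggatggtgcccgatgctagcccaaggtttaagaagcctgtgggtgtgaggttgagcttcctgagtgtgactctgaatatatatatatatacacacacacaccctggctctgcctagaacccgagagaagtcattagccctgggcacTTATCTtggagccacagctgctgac
Epb42: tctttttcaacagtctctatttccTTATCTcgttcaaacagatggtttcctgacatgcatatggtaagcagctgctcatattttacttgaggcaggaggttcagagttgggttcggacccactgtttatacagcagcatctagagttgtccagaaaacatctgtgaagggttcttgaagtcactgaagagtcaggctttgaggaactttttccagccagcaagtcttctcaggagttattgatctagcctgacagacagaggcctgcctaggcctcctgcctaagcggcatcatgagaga

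The match began 86 bases before the start site in Alas2, 163 in the promoter of the ubiquitin ligase gene Trim10, 226 in Epb42 and 210 in Hbb-bs, where the KLF1-type match began 93 bases before the start. In Ackr1 it lay after the start site. Of those 12 named genes, 9 had a promoter in the table, 4 of those held AGATAA and 2 held CCACACCC. AGATAA occurred in 11.2% of all 32851 promoters in the table, in 7.41% of those of genes tested, in 8.04% of those of genes called higher, in 13.8% of the 311 promoters of genes called higher with spike-in scaling too, and in 6.79% of those called lower. For CCACACCC these shares were 3.56%, 3.91%, 3.77%, 7.07% and 3.98%. Among 3 further motifs searched, the Myc-type CACGTG was in 8.52% of promoters called higher and 11.2% of those called lower, the E2F-type TTGGCGC in 4.2% and 3.62%, and the ETS-type AGAGGAAGT in 0.71% and 1.53%. The letters describe these windows and no binding was measured.

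The 12 named genes with the largest rises among those well above background throughout both populations were Slc4a1, Unc93a2, Alas2, Zdhhc22, Hbb-bs, Hbb-b2, Slc6a9, Dmtn, Ackr1, Hba-a1, Hbb-bt and Tmod1, with differences from 12.46 down to 8.83. Slc4a1, the anion exchanger band 3 of the red cell membrane, was at 11.84 and 11.40 in early erythroblasts and at -0.86, -0.78 and -0.87 in MEP. The difference in Slc4a1 of 12.46 (SE 0.24, adjusted p = 3.8e-14) was the highest in this ranking. Its MEP level lay close to that of LSK cells (-0.77 ± 0.51, SD, n = 3), and late erythroblasts stood at 11.94 ± 0.24 (SD, n = 3).

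Unc93a2 was at 9.84 and 10.33 in early erythroblasts and at -2.14, -2.25 and -2.45 in MEP, a difference of 12.36 (SE 0.26, adjusted p = 5.3e-14). Zdhhc22, a member of the palmitoyltransferase family, was at 9.17 and 9.72 against -2.06, -2.06 and -2.13, a difference of 11.53 (SE 0.27, adjusted p = 1.2e-13). Slc6a9, a glycine transporter that supplies a substrate of heme synthesis, was at 10.07 and 9.76 against -0.03, 0.02 and -0.07, a difference of 9.94 (SE 0.14, adjusted p = 3.8e-15). The arrays of the groups did not overlap for any of these genes, a condition for entering the ranking, and both probes of Slc6a9 were called higher.

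**Figure D1:**
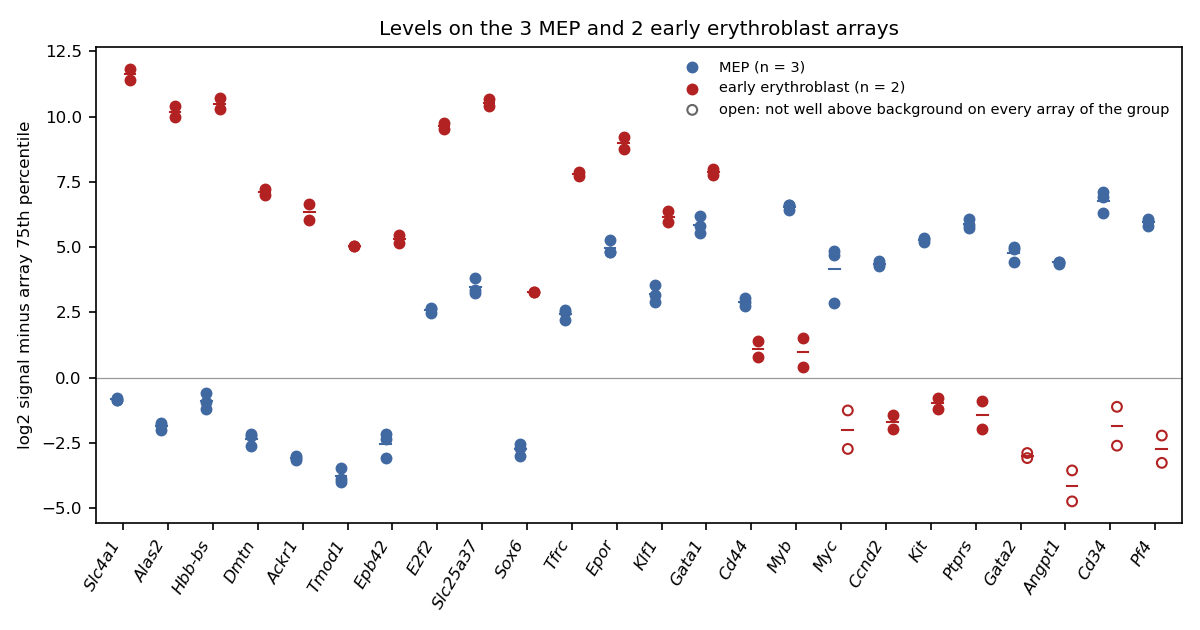
Levels (log2 processed signal minus the array's 75th percentile) of 24 genes on the 3 MEP arrays and the 2 early erythroblast arrays, with short bars at the group means and open circles where the gene was not well above background on every array of the group. Red cell genes such as Slc4a1 and Alas2 rose from below 0 to above 9, Gata1 and Klf1 rose from a high MEP level, and Gata2, Angpt1, Cd34 and Pf4 fell to or near background.

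Globin genes rose most as a group. All 9 globin genes tested were called higher, with a median difference of 9.24 against 0.23 over all features, and 8 of the 9 kept a positive difference with spike-in scaling (8 called). Hbb-bs was at 10.71 and 10.29 in early erythroblasts and at -0.92, -1.21 and -0.57 in MEP (difference 11.40, SE 0.27, adjusted p = 1.3e-13). Hba-a1, an adult alpha globin, was at 12.69 and 12.24 against 3.30, 3.32 and 3.05 (difference 9.24, SE 0.22, adjusted p = 1.5e-13). Alpha globin signal was thus well above the 75th percentile in MEP, but this was not particular to MEP. Mean Hba-a1 levels were 2.84 in LSK cells, 4.16 in common myeloid progenitors, 2.02 in granulocyte-macrophage progenitors and 8.28 in granulocytes. The adult globin entries are near-identical in sequence (Hba-a1 with Hba-a2, and Hbb-bs with Hbb-bt, Hbb-b1 and Hbb-b2). A probe may therefore take up transcripts of another entry, and the values of single entries are uncertain. Hbb-b1 and Hbb-b2 need not be genes separate from Hbb-bs and Hbb-bt in this strain. Some transcripts may thus be counted repeatedly among the 9.

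Less familiar members of the clusters rose as well. The theta globin gene Hbq1b was well above background on both early erythroblast arrays (5.46 and 4.96) and on no MEP array, at least 961-fold higher (adjusted p = 2.6e-13). Its copy Hbq1a, detected on 1 MEP array, differed by 9.83 (SE 0.76). The embryonic beta-like genes Hbb-y and Hbb-bh1 had differences of 5.08 and 3.16, the latter the one globin whose difference was not positive with spike-in scaling.

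Heme synthesis rose along its whole length. Of 20 genes tested, 17 were called higher and 3 lower, with a median difference of 3.80, and 11 of the 17 kept a positive difference with spike-in scaling (7 called). Alas2 was at 10.41 and 9.98 in early erythroblasts and -1.99, -1.82 and -1.75 in MEP (difference 12.05, SE 0.21, adjusted p = 2.0e-14). After Alas2 came Abcb10, a mitochondrial transporter (5.81), and the enzymes Ppox (5.50), Fech, which inserts iron (5.38), Uros (5.0), Cpox (4.47), Urod (3.81) and Alad (3.78). The housekeeping form of the first enzyme moved the other way: Alas1 was at 1.86 and 2.64 in early erythroblasts and at 4.33, 4.28 and 4.46 in MEP (difference -2.11, SE 0.24, adjusted p = 8.9e-07), although 1 of its probes was called higher and 1 lower. Flvcr1, a heme exporter, fell by 3.23 and Hmox2, a heme oxygenase, by 2.13, while Hmox1 rose by 2.13.

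Of 24 iron genes tested, 17 were higher and 4 lower (median 1.52), beside 37.2% and 45.9% of all named genes. With spike-in scaling 5 of the 17 kept a positive difference (3 called). Slc25a37, mitoferrin 1, the importer of iron into erythroid mitochondria, was at 10.66 and 10.42 against 3.26, 3.36 and 3.80 in MEP (difference 7.07, SE 0.19, adjusted p = 2.6e-13). Tfrc, the transferrin receptor, was at 7.73 and 7.87 against 2.61, 2.52 and 2.23 (difference 5.35, SE 0.19, adjusted p = 3.4e-12), with 3 probes called higher. No array of one population reached the range of the other for either gene. Erfe, the hormone that lowers hepcidin, rose by 5.47 (SE 0.39), the iron-sulfur assembly genes Isca1 and Glrx5 by 3.84 and 3.58, and Slc11a2, the endosomal iron transporter, by 3.33. The ferritin genes Fth1 and Ftl1 rose by 2.72 and 2.02 relative to the array percentile and were not positive with spike-in scaling. The second transferrin receptor Tfr2 was lower by the fit, with a difference of -0.88 (SE 0.21, adjusted p = 0.0014).

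The membrane skeleton and its anchors rose together. Of 16 genes tested, 13 were higher and 3 lower (median 4.15), and 9 of the 13 kept a positive difference with spike-in scaling (6 called). Dmtn, the actin-bundling protein dematin, was at 7.24 and 7.00 against -2.25, -2.17 and -2.63 (difference 9.47, SE 0.24, adjusted p = 2.1e-13). Tmod1, which caps the short actin filaments of the skeleton, was at 5.05 and 5.06 against -3.99, -3.89 and -3.45 (difference 8.83, SE 0.42, adjusted p = 5.8e-11). The groups were separate for both, a condition of the ranking that holds them. Epb42 rose by 7.85 and Ank1, ankyrin, which ties spectrin to band 3, by 6.28. The 3 that fell, Tmod3 (-2.63), Add3 (-2.35) and Tpm3 (-1.99), are the broadly expressed forms of tropomodulin, adducin and tropomyosin, whose relatives Tmod1, Add2 and Tpm1 rose.

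Blood group antigens and other surface proteins of the red cell rose in 20 of 22 genes tested (median 4.14), and 14 of the 20 kept a positive difference with spike-in scaling (8 called). Ackr1 was at 6.65 and 6.03 against -3.16, -3.10 and -3.0 (difference 9.43, SE 0.25, adjusted p = 2.3e-13). Its groups did not overlap, again a condition of that ranking. Rhd and Rhag of the Rh complex rose by 6.12 and 5.90, Kel, the Kell antigen, by 5.44, Icam4 by 4.53, Gypc by 4.47 and Aqp1, the water channel, by 3.56. The exceptions were Slc2a1, a glucose transporter, which fell by 3.75, and the channel gene Trpc6, at least 5.29-fold lower.

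Of 20 enzymes typical of red cells, 10 were higher and 9 lower (5 lower without early erythroblast array 2), beside 37.2% and 45.9% of all named genes, and 3 of the 10 kept a positive difference with spike-in scaling (none called). Prdx2, the main peroxiredoxin of red cells, rose by 4.21 (SE 0.13), Bpgm, which makes the allosteric regulator of hemoglobin 2,3-bisphosphoglycerate, by 3.96 (SE 0.15), and Cyb5a by 3.6. Car2 rose by 3.22 while Car1 fell by 1.56. Ada, an adenosine deaminase, fell by 3.91 and Gpi1, a glycolytic isomerase, by 3.12.

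**Figure D2:**
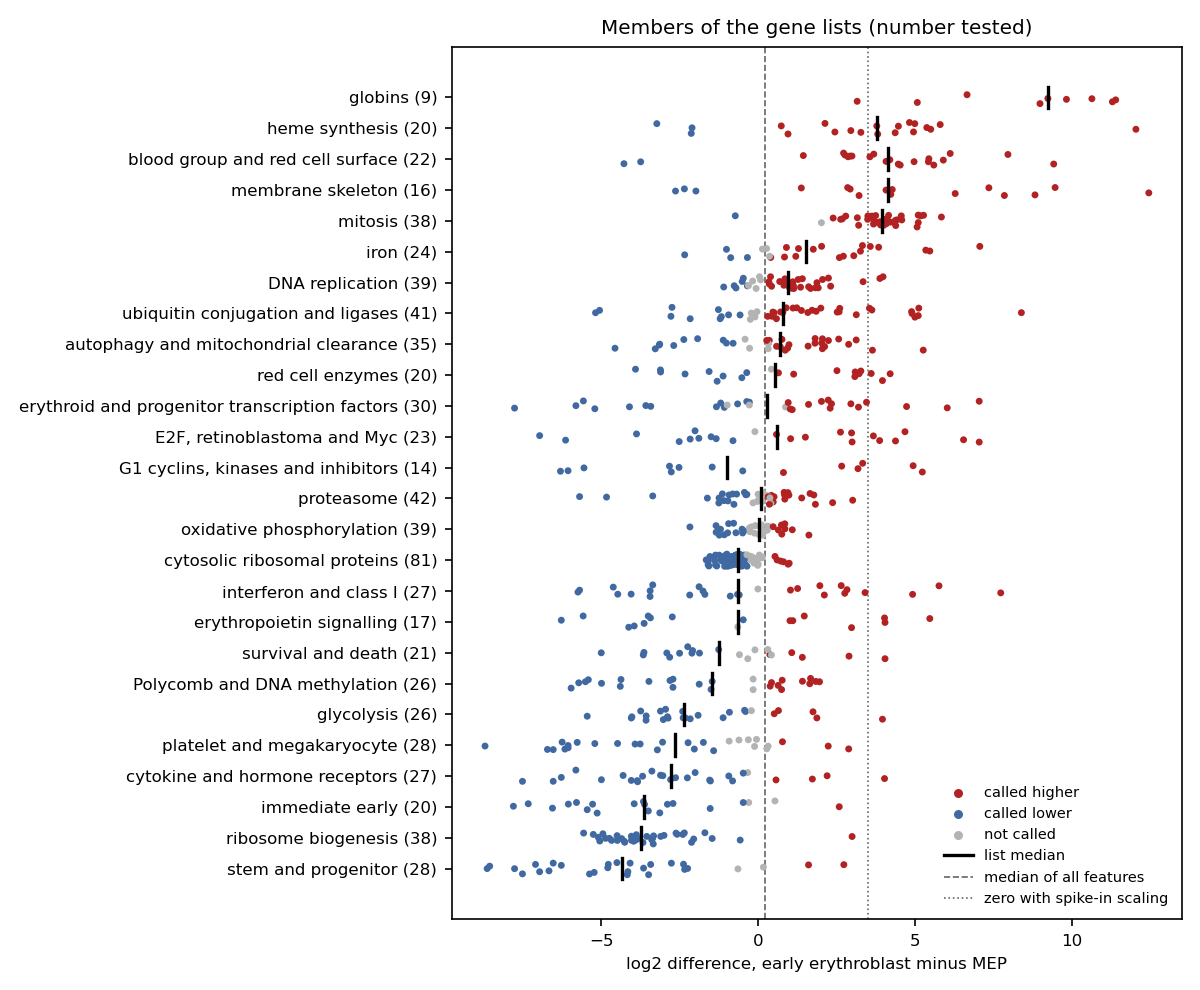
Log2 differences (early erythroblast minus MEP, horizontal axis) of each tested member of 26 gene groups, red where called higher, blue where called lower and grey where not called, with black bars at the group medians. Globins, heme enzymes, surface antigens, membrane skeleton and mitosis genes have medians to the right of the dotted line at 3.50, where zero falls with spike-in scaling, and stem and progenitor, ribosome biogenesis and immediate early genes have medians below -3.

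Of 30 transcription factors, 14 were higher, 13 lower and 3 not called (median 0.30), beside 37.2% and 45.9% of all named genes, and 3 of the 14 kept a positive difference with spike-in scaling (3 called). Gata1 was already high in MEP, at 5.82, 6.20 and 5.54, and reached 8.00 and 7.75 in early erythroblasts (difference 2.02, SE 0.22, adjusted p = 5.6e-07). Gata2 was at 4.42, 4.93 and 4.99 in MEP and at -2.89 and -3.08 in early erythroblasts, where it was not well above background, at least 188-fold lower (adjusted p = 3.0e-13). With spike-in scaling Gata1 itself had a difference of -1.48.

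Genes for partners of GATA1 rose relative to the percentile too. Klf1 was at 3.17, 3.56 and 2.90 in MEP and 6.38 and 5.95 in early erythroblasts (difference 2.96, SE 0.30, adjusted p = 2.9e-07), and Tal1 rose by 3.20, Zfpm1, which encodes the cofactor FOG1, by 2.34, Nfe2 by 2.24, Lmo2 by 1.61 and Gfi1b by 1.09. None of these 6 had a positive difference with spike-in scaling. Ldb1, which bridges the complex, and the corepressor gene Cbfa2t3 were lower, by -1.33 and -3.58.

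The factors that also rose on the spike-in scale were E2f2, Sox6 and Klf3. E2f2, a cell cycle factor of erythroid terminal divisions, was at 2.69, 2.62 and 2.47 in MEP and 9.76 and 9.52 in early erythroblasts (difference 7.05, SE 0.17, adjusted p = 1.4e-13). Sox6, which silences embryonic globins and speeds maturation, was at -2.70, -2.99 and -2.56 against 3.29 and 3.27 (difference 6.03, SE 0.29, adjusted p = 6.6e-11). The groups were apart by more than 5 log2 units for both. Klf3 rose by 4.73 and Foxo3, a factor of the oxidative stress response, by 3.46.

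Progenitor factors fell. Myb was at 6.41, 6.6 and 6.63 in MEP and at 0.42 and 1.53 in early erythroblasts (difference -5.57, SE 0.21, adjusted p = 6.6e-12). Hhex fell by 5.81, Fli1, a megakaryocyte factor, by 5.21, and Bcl11a, a repressor of fetal globin, by 4.10 (SE 0.15). Spi1, the myeloid factor PU.1, was not well above background on either early erythroblast array and at least 3.34-fold lower than in MEP (adjusted p = 3.5e-04). Runx1 was lower by a small margin, with a difference of -0.66 (SE 0.26, adjusted p = 0.028).

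Of 17 genes of the erythropoietin pathway, 7 were higher and 9 lower (median -0.65), beside 37.2% and 45.9% of all named genes, and 3 of the 7 kept a positive difference with spike-in scaling (1 called). Epor, the receptor, was at 4.8, 5.29 and 4.81 in MEP and 9.22 and 8.77 in early erythroblasts (difference 4.03, SE 0.24, adjusted p = 6.1e-10). Its targets Bcl2l1 and Erfe rose, as did Cish, a feedback inhibitor (2.98), and Pim1 (1.11). The signal transducers fell: Stat5a was at 4.13, 4.36 and 4.47 in MEP and -1.71 and -0.81 in early erythroblasts (difference -5.58, SE 0.21, adjusted p = 4.8e-12), and Stat5b fell by 2.74. Inhibitors of the pathway also fell, with Socs3 at -4.13, Ptpn6 at -3.95 and Sh2b3 at -3.51, and Spred2 was at least 4.26-fold lower. Jak2, the kinase bound to the receptor, differed by 1.01.

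The stem and progenitor programme was lost. Of 28 genes tested, 24 were lower and 2 higher (median -4.34), and 18 of the 28 were well above background on neither early erythroblast array. Kit, the receptor for stem cell factor, was at 5.20, 5.30 and 5.36 in MEP and at -1.21 and -0.77 in early erythroblasts (difference -6.28, SE 0.17, adjusted p = 3.5e-13). Cd34 was at 6.91, 6.32 and 7.11 against -2.61 and -1.12, where it was detected on 1 array (difference -8.64, SE 0.34, adjusted p = 9.5e-12). Angpt1, the ligand of the TIE2 receptor, was at least 145-fold lower, the homeobox factor Meis1 at least 137-fold, the receptor Flt3 at least 96.7-fold and Sox4 at least 81.0-fold, with adjusted p from 3.1e-11 to 2.4e-12. Lmo2, a partner of TAL1, was among the exceptions (1.61).

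Genes of the alternative platelet fate fell too. Of 28 platelet and megakaryocyte genes tested, 18 were lower, 3 higher and 7 not called (median -2.64). The shares over all named genes were 45.9% lower and 37.2% higher. Pf4, the chemokine of platelet granules, was at 5.82, 5.99 and 6.09 in MEP and at -3.27 and -2.22 in early erythroblasts (difference -8.71, SE 0.37, adjusted p = 1.9e-11), well above background on array 2 alone of the latter. Itgb3, an integrin subunit of platelets, was at least 36.4-fold lower, Gp5 at least 22.9-fold and Treml1 at least 70.3-fold. Itga2b, the integrin CD41, was at 3.08, 3.13 and 3.53 in MEP and -0.02 and 2.04 in early erythroblasts (difference -2.23, SE 0.42, adjusted p = 1.7e-04), so the 2 erythroblast arrays were far apart. Gp9 (2.23), F5 (0.78) and Gp6 were called higher relative to the percentile, none of them positive with spike-in scaling. Gp6 was well above background on no MEP array and at least 5.53-fold higher. F5 had a difference of -0.11 without early erythroblast array 2 and 1.66 without array 1.

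The named genes with the largest falls among those measured in both populations were Ptprs, Muc13, Tmem176b, Ndrg1, S100a10, Galnt6, Dusp2, Kit, Egfl7, Smyd2, F2r and Slc19a1, from -7.32 to -6.14. Ptprs, a receptor-type tyrosine phosphatase, was at 5.75, 5.86 and 6.07 in MEP and -1.96 and -0.89 in early erythroblasts (SE 0.23, adjusted p = 1.2e-12). Muc13, a membrane mucin, was at 6.30, 6.33 and 6.71 against -0.73 and -0.37 (difference -7.00, SE 0.28, adjusted p = 1.1e-11). Their arrays did not overlap, a condition for entering this ranking. F2r, the thrombin receptor, fell by 6.16, Dusp2, a phosphatase of MAP kinases, by 6.33, and Slc19a1, the folate carrier, by 6.14.

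Cytokine receptors as a class went down, with 22 of 27 tested lower and 4 higher (median -2.79). Besides Kit and Flt3, Tgfbr2 fell by 5.81, Rara, a retinoic acid receptor, by 4.31, Thra, a thyroid hormone receptor, by 4.05, and Il6st, the shared subunit gp130, was at least 7.94-fold lower. Epor alone kept a positive difference with spike-in scaling (0.53, not called). The glucocorticoid receptor gene Nr3c1 differed by -0.48, Ifnar2 by 2.20 and Csf3r by 1.73. Integrins and adhesion genes were lower in 13 of 20 and higher in 5 (median -1.77), beside 45.9% and 37.2% of all named genes. Itga6 was at -5.45, while Cxcr4 rose by 4.05 and Itga4, which binds macrophages of the erythroblastic island, by 1.55.

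Mitotic genes rose together. Of 38 tested, 36 were higher, 1 lower and 1 not called (median 3.95), and 28 of the 36 kept a positive difference with spike-in scaling (6 called). Cdc25b, a phosphatase that triggers mitosis, was at 2.02, 1.76 and 1.97 in MEP and 7.91 and 7.62 in early erythroblasts (difference 5.84, SE 0.18, adjusted p = 9.3e-13). Mki67, the proliferation antigen Ki-67, was at 5.93, 5.78 and 5.63 against 11.06 and 10.87 (difference 5.19, SE 0.13, adjusted p = 1.9e-13). Both early erythroblast arrays lay above all MEP arrays for these genes. Cyclin genes Ccnb1, Ccnb2 and Ccna2 rose by 4.13, 4.16 and 4.08, and the kinase genes Cdk1, Plk1 and Aurka by 4.0, 3.90 and 3.75. Cep55, which acts in abscission, was the member called lower (-0.73, SE 0.31, adjusted p = 0.039), and it was not called lower without MEP array 3 or without either early erythroblast array.

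DNA replication genes moved less. Of 39 tested, 28 were higher and 6 lower (median 0.95), beside 37.2% and 45.9% of all named genes. With spike-in scaling 2 of the 28, Rrm2 and Orc1, kept a positive difference, and neither was called there. Rrm2, a subunit of ribonucleotide reductase, rose by 3.98 (SE 0.12) and Orc1, of the origin recognition complex, by 3.88 (SE 0.23). Tk1 rose by 3.35, Tyms by 2.31 and Cdc6 by 2.05. Subunits of the replicative helicase had small differences, 0.82 for Mcm2, 0.34 for Mcm5, -0.51 for Mcm3 and, not called, -0.06 for Mcm6.

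Of 14 genes of the G1 machinery, 6 were higher and 8 lower, beside 37.2% and 45.9% of all named genes, and 2 of the 6, Cdkn2d and Cdkn2c, were called higher with spike-in scaling too. Ccnd2 was at 4.46, 4.29 and 4.35 in MEP and -1.95 and -1.44 in early erythroblasts (difference -6.06, SE 0.17, adjusted p = 3.7e-13). Ccnd3, the D cyclin that sets the number of terminal divisions, was at 5.59, 5.57 and 5.67 against 9.13 and 8.75 (difference 3.33, SE 0.13, adjusted p = 1.1e-11). Ccnd1 was at least 21.2-fold and Cdk6 at least 11.2-fold lower, Cdk4 fell by 2.52, and Ccne1 rose by 3.18. Among inhibitors Cdkn2d rose by 5.24, Cdkn2c by 4.94 and Cdkn1b, p27, by 2.66, whereas Cdkn1a, p21, fell by 2.77.

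Of 23 genes in the E2F, retinoblastoma and Myc list, 12 were higher and 10 lower (median 0.59), beside 37.2% and 45.9% of all named genes, and 6 of the 12 kept a positive difference with spike-in scaling (3 called). Myc was at 4.87, 4.70 and 2.86 in MEP and -2.73 and -1.26 in early erythroblasts (difference -6.14, SE 0.53, adjusted p = 5.2e-08), with MEP array 3 below the other two. Mycn was at least 33.3-fold lower. The Myc antagonists Mxd3 and Mxd1 rose by 6.55 and 4.68 and Mxi1 by 3.87, while Mxd4 and Mnt fell by 2.52 and 1.5. Rb1, the retinoblastoma gene, rose by 4.38 (SE 0.12) and E2f4 by 3.00.

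Ribosome biogenesis, a process driven by Myc in many cells, was lower in 37 of 38 genes tested (median -3.75). Wdr12 was at 2.60, 2.80 and 2.31 in MEP and -3.41 and -2.59 in early erythroblasts (difference -5.57, SE 0.26, adjusted p = 5.8e-11). Nop16 fell by 5.26, Rrs1 by 5.10, Gar1 by 5.05, and the RNA polymerase I subunits Polr1e, Polr1b and Polr1a by 4.95, 4.87 and 3.91. The nucleolar proteins Npm1, Fbl and Ncl fell by 3.88, 3.11 and 2.40. Ubtf, the polymerase I factor UBF, was the exception, at 7.52, 7.41 and 7.23 in MEP and 10.42 and 10.35 in early erythroblasts (difference 3.00, SE 0.30, adjusted p = 2.2e-07), with both probes called higher, though its difference was -0.51 with spike-in scaling.

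Messages for the ribosomal proteins themselves moved far less than the biogenesis factors. Of 81 tested, 58 were lower and 6 higher (median -0.66), beside 45.9% and 37.2% of all named genes. With quantile normalization 76 were lower and the other 5 were not called. Rps19, mutated in Diamond-Blackfan anemia, had a difference of -1.66 (SE 0.14, adjusted p = 4.5e-08) and was the lowest of the 81. Rpl5 and Rpl11 were at -1.59 and -1.36. Rpl41 (0.99), Rpsa (0.96) and Rps12 (0.81) were the highest, but with quantile normalization their differences were -0.05, 0.03 and 0.30, not called, and for Rpsa 3 of 4 called probes were lower.

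Of 21 survival and cell death genes tested, 11 were lower and 5 higher (median -1.26), beside 45.9% and 37.2% of all named genes. Among the 5, Bcl2l1 alone kept a positive difference with spike-in scaling (0.54, not called). Bcl2l1, which encodes BCL-XL, was at 3.17, 3.36 and 3.24 in MEP and 7.23 and 7.37 in early erythroblasts (difference 4.05, SE 0.10, adjusted p = 1.8e-13). Bcl2 was at 2.86, 2.60 and 3.12 against 0.04 and -0.14 (difference -2.91, SE 0.19, adjusted p = 1.7e-09), and Bcl2l2 was at least 9.02-fold lower. The groups were separate in opposite senses for Bcl2l1 and Bcl2. Mcl1 had a difference of 0.37 (SE 0.15, adjusted p = 0.028).

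Autophagy genes were higher in 21 of 35 tested and lower in 10 (median 0.71), beside 37.2% and 45.9% of all named genes. Of the 21, 2, Atg4d and Atg9a, kept a positive difference with spike-in scaling, where Atg4d was called. Atg4d, a protease that processes ATG8 proteins, was at 2.97, 2.97 and 2.88 in MEP and 8.44 and 7.97 in early erythroblasts (difference 5.27, SE 0.24, adjusted p = 4.2e-11). Bnip3l, NIX, the receptor for clearance of mitochondria from reticulocytes, rose by 2.57 (SE 0.14) with 4 probes called higher, while its relative Bnip3 fell by 2.69. Atg10, an enzyme of the ATG12 conjugation system, was at least 5.73-fold lower, and Atg3 and Fundc1 fell by 3.28 and 3.15.

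Ubiquitin conjugation and ligase genes were higher in 27 of 41 and lower in 10 (median 0.79), beside 37.2% and 45.9% of all named genes. Of the 27, 8 kept a positive difference with spike-in scaling (6 called). Trim10, a ligase of erythroid cells, was at -1.39, -1.48 and -2.28 in MEP and 6.70 and 6.66 in early erythroblasts (difference 8.40, SE 0.36, adjusted p = 2.0e-11). Ube2o, which marks unassembled and ribosomal proteins for removal in reticulocytes, rose by 5.12 (SE 0.14), Ube2c by 5.11, Ube2l6 by 5.0, Rnf123 by 4.89 and Trim58 by 3.55. Ube2e1 fell by 5.19 and Ube2e2 was at least 9.83-fold lower. Proteasome subunits divided evenly, 16 higher and 16 lower of 42 (median 0.10), beside 37.2% and 45.9% of all named genes. None of those called had a positive difference on the spike-in scale, and after quantile normalization 10 were higher and 21 lower. The 3 inducible catalytic subunits Psmb8, Psmb10 and Psmb9 fell by 5.69, 4.83 and 3.36.

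Glycolysis was lower in 20 of 26 genes and higher in 5 (median -2.36), and 1 of the 5, Bpgm, kept a positive difference with spike-in scaling and was not called there. Ldha, lactate dehydrogenase A, was at 8.06, 8.09 and 8.14 in MEP and 3.57 and 4.54 in early erythroblasts (difference -4.05, SE 0.20, adjusted p = 1.0e-10). Hk2 was at least 13.7-fold lower, whereas Hk1, the hexokinase of red cells, had a difference of 0.65. Pgam1, Pgk1 and Pkm fell by 3.58, 3.57 and 3.02, and Aldoa fell by 2.39 while Aldoc rose by 1.87. Of 39 oxidative phosphorylation genes, 13 were lower and 9 higher, beside 45.9% and 37.2% of all named genes, and 17 were not called. Their median difference was 0.04, and 25 were lower and 5 higher after quantile normalization.

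Genes against oxidative damage were higher in 15 of 27 and lower in 8 (median 0.54), beside 37.2% and 45.9% of all named genes. Of the 15, 3 were still positive on the spike-in scale (1 called). Hagh rose by 5.31, Prdx2 by 4.21, Gclc, which limits glutathione synthesis, by 3.57 and Gpx1 by 3.32. Prdx6 and Prdx1 fell by 3.57 and 2.04. Genes of nuclear condensation and enucleation were higher in 16 of 26 and lower in 8 (median 0.78), beside the same 37.2% and 45.9%. Of the 16, 3 were still positive on the spike-in scale (none called). Lmna rose by 4.46, Lbr, the lamin B receptor, by 4.40 and Diaph3, a formin, by 4.38, while the acetyltransferase gene Kat2a fell by 5.13 and H1f0, a linker histone, was at least 3.21-fold lower.

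Polycomb and DNA methylation genes were lower in 14 of 26 and higher in 10 (median -1.48), beside 45.9% and 37.2% of all named genes. None of the 10 had a positive difference on the spike-in scale. Dnmt3a, a de novo methyltransferase, was at 1.45, 1.23 and 1.38 in MEP and not well above background in early erythroblasts, at least 17.4-fold lower (adjusted p = 2.3e-09). Tet2 and Tet1, which oxidise methylcytosine, were at least 18.6-fold and 12.8-fold lower, and Phc1 and Cbx2 of the Polycomb repressive complex at least 11.6-fold each. Bmi1 fell by 4.37. Dnmt1, the maintenance methyltransferase, had a difference of 0.77, and Ezh2, Uhrf1 and Ezh1 rose by 1.96, 1.84 and 1.67 relative to the percentile.

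Of 27 interferon response and class I genes, 11 were higher and 15 lower (median -0.66), beside 37.2% and 45.9% of all named genes, with 3 of the 11 called higher on the spike-in scale too. Rsad2, viperin, was at -0.77, -0.78 and -0.89 in MEP and 6.99 and 6.86 in early erythroblasts (difference 7.74, SE 0.15, adjusted p = 4.0e-14). Isg15, a ubiquitin-like modifier, was at 2.46, 2.71 and 2.22 against 8.34 and 8.12 (difference 5.77, SE 0.17, adjusted p = 6.8e-13), and Isg20 rose by 4.93. No overlap occurred for these 3. Irf7 rose by 3.41, while Ifitm1 fell by 5.75, Ifitm2 by 4.62, Gbp2 by 4.48 and H2-K1, a class I antigen, by 3.44. The difference of B2m, not called, was -0.01.

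Immediate early genes were lower in 17 of 20 tested and higher in 1 (median -3.64). Egr1 was at 5.78, 6.29 and 6.01 in MEP and at -3.56 and -0.00 in early erythroblasts (difference -7.81, SE 0.74, adjusted p = 1.4e-07). Fos was at 5.56, 5.90 and 6.11 against -2.56 and -0.39 (difference -7.33, SE 0.45, adjusted p = 1.0e-09). For both genes the early erythroblast arrays stood more than 2 log2 units from each other and still below all MEP arrays. Btg2, an antiproliferative gene, rose by 2.59 relative to the percentile.

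**Figure D3:**
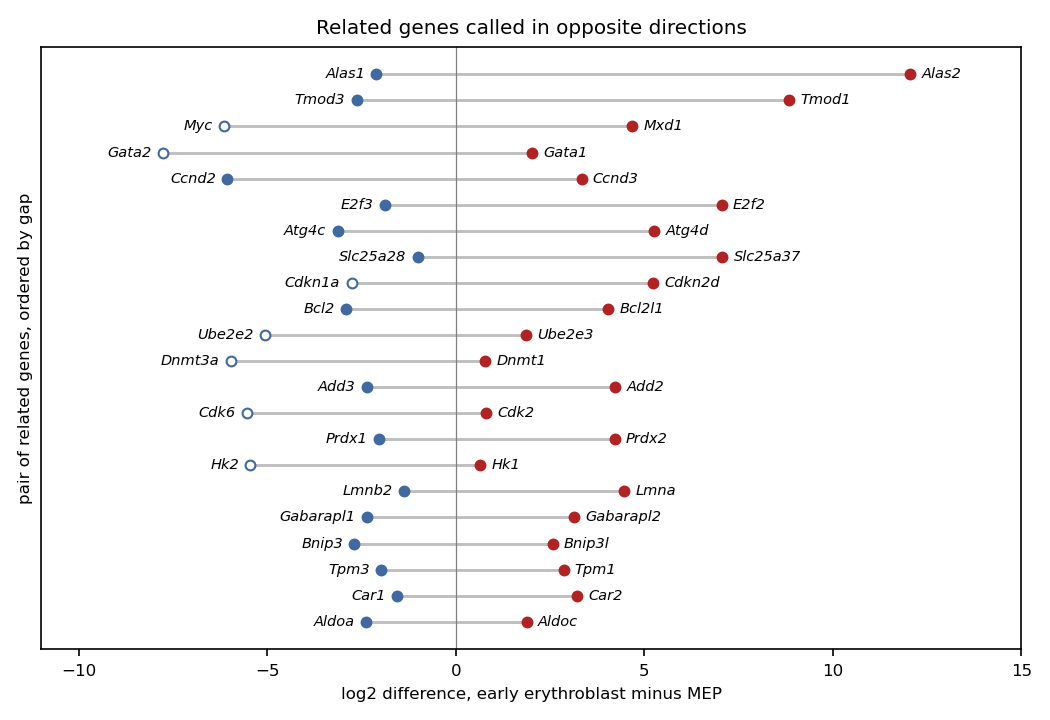
Log2 differences (early erythroblast minus MEP, horizontal axis) of 22 pairs of related genes, with the member called higher in red and the member called lower in blue, ordered by the gap between them, and open circles where a gene was not well above background throughout both populations. Among pairs with filled circles the gap ran from 4.26 for Aldoc and Aldoa to 14.2 for Alas2 and Alas1.

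Several families thus held a member that rose and one that fell, and 22 such pairs, chosen after the values were seen, were set side by side. The gap between the differences of a pair does not change when an array is rescaled by a constant. In 5 pairs the lower member (Gata2, Cdk6, Hk2, Ube2e2 and Dnmt3a) was well above background on no early erythroblast array and in 2 (Cdkn1a and Myc) on 1, so these gaps are not exact. In the other 15 pairs the gap ran from 4.26 to 14.2 log2 units with a median of 6.58, and from 4.37 to 13.4 after quantile normalization. Widest of the 15 were Alas2 with Alas1 (14.2), Tmod1 with Tmod3 (11.46), Ccnd3 with Ccnd2 (9.40) and E2f2 with E2f3 (8.94). Bcl2l1 with Bcl2 had a gap of 6.96, Add2 with Add3 one of 6.58 and Prdx2 with Prdx1 one of 6.25.

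Detection alone gave an asymmetric picture. Among all features 446 were well above background on both early erythroblast arrays and on no MEP array, and 3210 were so on all MEP arrays and on no early erythroblast array. Without early erythroblast array 1 or 2 the first number was 980 and 1013, and without MEP array 3 the second was 4805. The dimness of the erythroblast arrays moves with this split, and its part was not tested. Of the 181 named genes that appeared, 149 were detected on at least 1 and 107 on every late erythroblast array, and 60 on no array outside the erythroblasts. Of the 1978 named genes that disappeared, 1926 were detected on every LSK array and 80 on every late erythroblast array.

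The largest bounds among genes that appeared were, after Hbq1b, those of Nrip3 (at least 746-fold), Otop1, a proton channel (649-fold), Samd11 (592-fold), Artn, a neurotrophic ligand (569-fold), Mmel1, a metallopeptidase (418-fold), Apol10b (312-fold) and Nhlrc4 (264-fold), with adjusted p from 1.3e-09 to 1.5e-12. Nrip3 was at 4.85 and 4.83 on the early erythroblast arrays, and Otop1 at 4.64 and 4.76. Among genes that disappeared, after Gata2, Angpt1 and Meis1 came Niban2 (at least 97.5-fold), Flt3, Sox4, Scin, an actin-severing protein (73.7-fold), and Treml1.

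**Figure D4:**
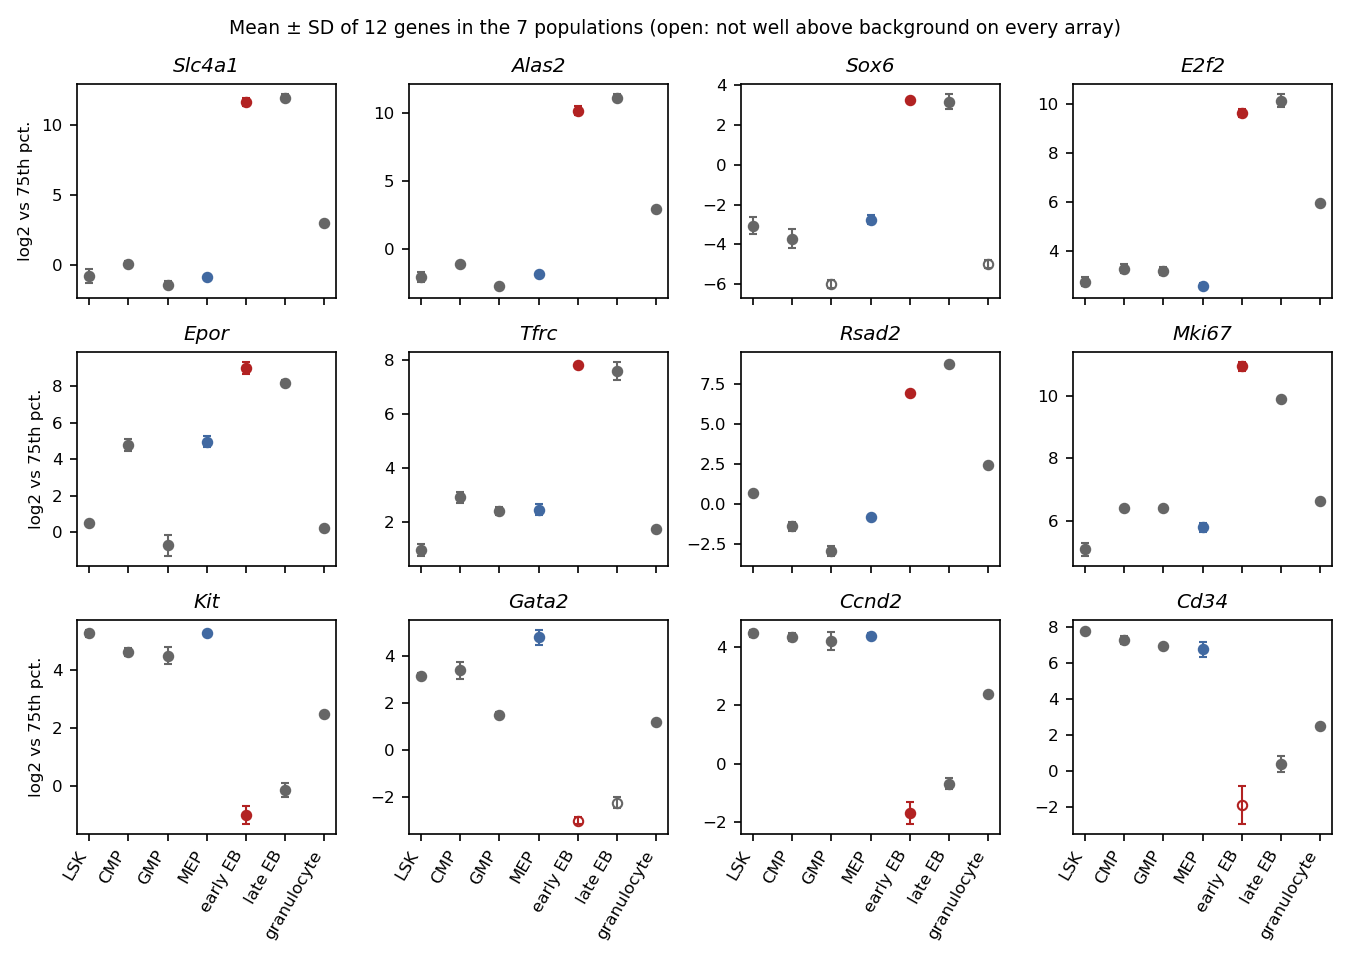
Mean level ± SD (log2 processed signal minus the array's 75th percentile) of 12 genes in the 7 sorted populations (EB, erythroblast; n = 3, except 2 early erythroblast and 2 GMP arrays), open where not well above background on every array. The step between MEP and early erythroblasts was the widest along the erythroid path for Slc4a1, Alas2 and Kit, whose late erythroblast means lay within 1 log2 unit of the early ones.

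The levels in other populations placed these steps. Epor was at 0.53 ± 0.01 (SD, n = 3) in LSK cells, 4.97 ± 0.28 (SD, n = 3) in MEP, 9.0 ± 0.32 (SD, n = 2) in early and 8.19 ± 0.12 (SD, n = 3) in late erythroblasts. Gata1 followed a similar course, from 1.84 ± 0.14 (SD, n = 3) in LSK cells to 5.85 ± 0.33 (SD, n = 3), 7.87 ± 0.18 (SD, n = 2) and 6.90 ± 0.14 (SD, n = 3). For both, part of the rise was in place in MEP. For Epor that part was present in common myeloid progenitors too, at 4.76 ± 0.32 (SD, n = 3). E2f2 was instead at 2.75 ± 0.20 (SD, n = 3) in LSK cells and 2.59 ± 0.11 (SD, n = 3) in MEP before it stood at 9.64 ± 0.17 (SD, n = 2) in early erythroblasts. Mki67 was higher in early than in late erythroblasts, 10.97 ± 0.14 (SD, n = 2) against 9.92 ± 0.04 (SD, n = 3), a difference that was not tested here.

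Genes of other cell types were measured in the early erythroblast sort. Granulocyte markers were called higher in 11 of 12 tested (median 2.52), none of them with a positive difference under spike-in scaling. S100a9, a calcium-binding protein of neutrophils, was at 6.04, 7.16 and 6.93 in MEP and 8.54 and 10.03 in early erythroblasts (difference 2.57, SE 0.39, adjusted p = 2.0e-05). The summed level of 14 granulocyte markers was 6.93 to 8.03 on the MEP arrays, 9.25 to 10.8 on the early erythroblast arrays, 11.4 to 11.6 in late erythroblasts and 13.2 to 13.3 in granulocytes. Each of the 14 was detected on at least 1 early erythroblast array, and the part of other cells in the differences was not tested. Myeloid progenitor genes went the other way, 13 of 19 lower and 2 higher (median -1.45), and without early erythroblast array 1 the counts were 9 lower and 6 higher. The shares over all named genes were 45.9% lower and 37.2% higher. Irf8, a monocyte factor, was at 5.38, 5.06 and 4.77 in MEP and at -0.67 and -0.14 in early erythroblasts (difference -5.48).

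Macrophage markers were higher in 9 of 11 tested (median 2.98), 2 of the 9 with a positive difference on the spike-in scale (none called). The complement genes C1qc, C1qa and C1qb differed by 3.89, 3.34 and 3.20, Cd5l by 3.75 and Vcam1, the ligand of integrin alpha 4 on island macrophages, by 2.98. The summed level of 15 markers was 0.52 to 0.79 on the MEP arrays and 3.21 to 3.26 on the early erythroblast arrays. It was 2.29 to 2.37 in LSK cells and 3.31 to 3.34 in granulocyte-macrophage progenitors. Cd163, Mertk and Siglec1 were well above background on no early erythroblast array. The part of macrophages in the results was not tested. Of 7 endothelial and stromal markers 4 were higher and 1 lower, with Cxcl12 at 3.57 and Lepr at 3.13, while Cdh5, Col1a1, Col3a1 and Emcn were detected on no early erythroblast array. The summed level of 10 such markers was 3.64 to 3.95 on the MEP arrays and 6.32 to 6.35 on the early erythroblast arrays, and their part was not tested either. Of 7 B cell markers 4 were higher and 3 lower (4 and 1 without MEP array 2 or 3). Of 9 T and NK cell markers 3 and 3 were (3 and 5 without MEP array 1), and of 11 eosinophil, basophil and mast cell markers 1 and 4. These counts stand beside 37.2% and 45.9% of all named genes. On early erythroblast array 2, 6 of the 7, 7 of the 9 and 8 of the 11 were higher than on array 1 (medians 0.62, 0.21 and 0.35). The summed levels of those 3 lists were 2.77 to 3.40, 5.56 to 5.62 and 3.17 to 4.02 on the early erythroblast arrays and 3.27 to 3.64, 5.61 to 5.99 and 4.65 to 4.98 on the MEP arrays.

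Noncoding features shifted upward relative to named genes. Of 2893 intergenic noncoding regions tested, 1912 were higher (66.1%) and 376 lower, with a median difference of 1.52, and of 887 custom features 477 were higher (53.8%) and 218 lower (24.6%), with a median of 1.03. On the spike-in scale 90 regions and 40 custom features were called higher. The upward shift of the regions was present at every signal level, with medians of 1.29, 1.62, 1.57, 1.38 and 1.82 in 5 classes of rising mean level, while custom features in the brightest class had a median of -0.10. Whether the dimmer erythroblast arrays contribute was not tested.

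**Figure D5:**
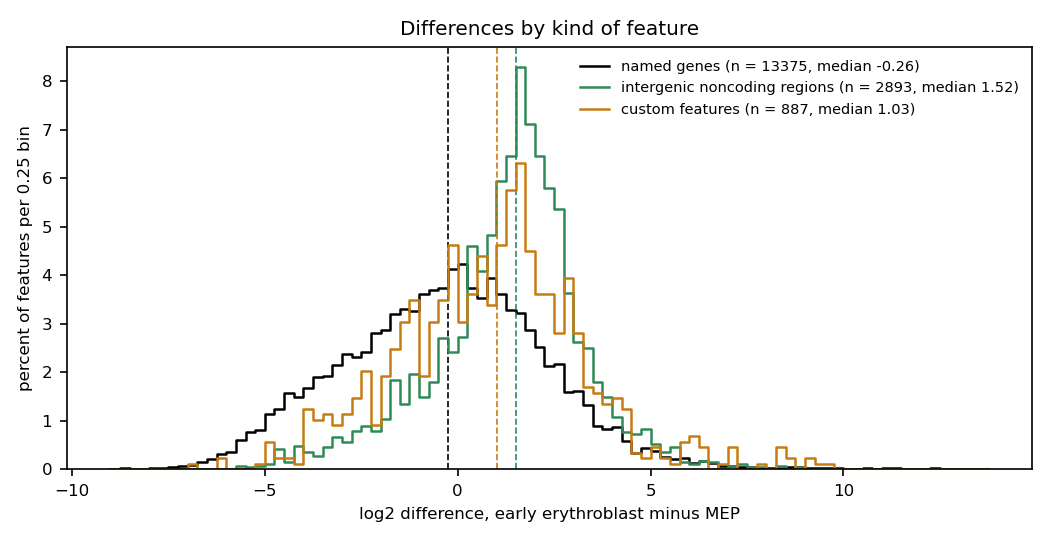
Distribution of log2 differences (early erythroblast minus MEP, horizontal axis, bins of 0.25) as the percent of features of each kind, with dashed lines at the medians. Intergenic noncoding regions (median 1.52) and custom features (median 1.03) lie to the right of named genes (median -0.26).

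Single noncoding transcripts reached the size of erythroid genes. The custom feature TCONS_00236091 was at 7.33 and 6.84 in early erythroblasts and -2.08, -1.74 and -2.56 in MEP (difference 9.21, SE 0.33, adjusted p = 3.8e-12), with all 3 probes called higher. TCONS_00108378 was at 6.12 and 6.39 against -2.29, -2.08 and -2.47 (difference 8.54, SE 0.18, adjusted p = 5.3e-14), again with 3 probes, and TCONS_00420872 differed by 8.43. The groups did not overlap for these 3 transcripts, a condition of their choice. In the other direction TCONS_00280707 was at 3.29, 3.51 and 3.33 in MEP and -2.28 and -1.36 in early erythroblasts (difference -5.20, SE 0.54, adjusted p = 3.9e-07), and TCONS_00486166 and TCONS_00060256 fell by 4.95 and 4.28.

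Among catalogue regions, placed on mm9 by the file headers, chr12:32781477-32808567 on the minus strand was at 6.14 and 6.52 in early erythroblasts and -1.89, -2.02 and -2.34 in MEP (difference 8.41, SE 0.17, adjusted p = 5.3e-14), with 3 probes called higher. The regions chr4:119923882-119924244 (minus strand) and chr17:22420025-22457650 (plus strand) differed by 7.59 and 7.40, and 1 of 3 called probes of the latter was lower. The largest falls were in chr2:158169020-158191295 (minus strand, -4.75), chr14:77006215-77063293 (minus strand, -4.67) and chr15:77164450-77201325 (plus strand, -4.56). Of the called probes in the chr14 region 5 were lower and 3 higher, and in the chr2 region 6 were lower and 1 higher. Probes within one region thus did not all move alike, and whether they measure different transcripts was not tested. Among 17 known noncoding RNAs tested, 7 were higher and 3 lower, beside 37.2% and 45.9% of all named genes. Mir22hg rose by 4.78 and Lockd, the lncRNA downstream of Cdkn1b, by 4.32, while Snhg6 fell by 3.04. On the spike-in scale Mir22hg was called higher, and Lockd was positive but not called. Malat1 was not called, at -0.07.

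Probes of one gene mostly moved together. Where 2 or more probes of a named gene were called, they had the same sign in 2221 of 2517 genes (88.2%), in 615 of 633 custom features (97.2%) and in 979 of 1157 regions (84.6%). Slide 3 of 5 held 1 array of each population, and 18515 of 18536 called features had the same sign within that slide (99.9%). Those arrays also entered the calls, so this agreement was largely built in.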

How the data were processed

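Per the file headers, the deposited scanner files hold intensity values from Agilent Feature Extraction 11.5.1.1 (protocol GE1_1105_Oct12), background-subtracted within each array and not scaled between arrays; the labels name Cy5, and the files hold 1 channel. The authors' series table held the files' background-subtracted signals. Control and outlier-flagged spots were left out, and spots of a probe were averaged. Genes were named through RefSeq accessions (27235 of 55681 catalogue probes), and a gene is represented by its probe of highest mean level. Levels (log2 processed intensity minus the 75th percentile) entered a linear model in limma 3.58.1 (R 4.3.3) with 1 mean for each of the 7 populations, using all 19 arrays. Features well above background on every array of either population were tested, and a call required this of the higher population and an adjusted p (Benjamini-Hochberg) under 0.05. Bounds set undetected spots to the higher of their own signal and their array's lowest detected signal. The fit was tested on simulated data.

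Members and gene lists were chosen with earlier results of these data known. Named genes included the 12 largest differences in each direction. These had to be detected in both populations, without overlap between their arrays and with the same sign under 3 scalings. The 3 largest custom features and regions met the same conditions. Also named were the 8 largest bounds, up to 6 members of each list and up to 3 against its majority, and a fixed list of lineage genes. Other list members are named to complete a group and were chosen after their values were seen. Results for a few genes are not reported here. Alternatives were another background correction (normexp, on median signals with an offset of 50), 3 other scalings, other filters, other probe rules, the series table, fewer arrays, slide and replicate blocks and a 2-fold minimum.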

Additional observations from a re-analysis of the deposited data

How the results depend on the processing

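With the other settings listed above, the number of features called higher in early erythroblasts (9937) and lower (8607) stayed within 1.5 times, except that spike-in scaling gave 607 higher and 18321 lower, no filter on detection gave 20464 higher, and detection on every array of both populations left 5390 lower. Higher calls made up 53.6% of all calls, against 48.8% after quantile normalization, 3.21% with spike-in scaling, 70.2% without the filter and 60.4% with detection in both. Leaving out 1 array gave 9704 to 10650 higher and 8107 to 8682 lower calls, and 3817 to 5278 features detected in 1 population alone, against 3656 with all arrays. Deviations of same-numbered arrays from their group means had correlations of -0.03 and 0.22 over 16347 features. The deviations of the 2 early erythroblast arrays mirror each other, and array 2 of both populations lay on slide 3. These values therefore cannot tell whether replicate numbers pair the samples. With the replicate number as a block 9869 features were higher and 8548 lower, and 98.7% of calls were shared.

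Of 298 named differences, some changed sign. With spike-in scaling as it stands, 83 of the 155 called higher kept a positive difference, and all 143 called lower stayed negative. For the values below, the median over all features was first aligned for other background corrections and scalings, a step chosen after seeing the data. With normexp background correction the differences were 0.75 for Igll1, 0.14 for Klrb1c, 0.35 for Ms4a2, 0.52 for Emcn, 0.0111 for Cep55, -0.0017 for Rpsa, -0.16 for Rps12, -0.13 for Cox4i1 and -0.62 for Mcl1. With the mean of all probes they were 0.21 for Tpm3, 0.59 for Tpsb2, -0.19 for Kdr and -0.76 for Rpsa. Without early erythroblast replicate 2, F5 was at -0.11, and without early erythroblast replicate 1 at 1.66. The cause was not tested. Both early erythroblast arrays were dim: a gene above background on neither has only a minimum fold, and the fall of one above it on 1 array, such as Cd34, Pf4 or Myc, is not exact.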
